A study of Mus musculus with 8 samples.

Results

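The classical cadherins Cdh1 (E-cadherin), Cdh2 (N-cadherin), Cdh3 (P-cadherin) and Cdh11 (cadherin-11, or OB-cadherin) were followed in cells sorted from gastrulating mouse embryos. A probe set was taken when its platform annotation named exactly 1 of these 4 symbols. That gave 7 of the 45141 probe sets in the table, 1 for Cdh1 and 2 each for the other genes, and 4 of the 17097 genes named on the array. At least 2 of the 8 arrays had to lie above 4.38, the median of all values, for a probe set to be tested. This held for 6 of the 7 probe sets, and all 4 genes were among the 11706 genes tested.

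All embryos carried Mesp1-rtTA and Teto-H2B-GFP, a transactivator driven by Mesp1 and a histone-bound GFP that it switches on, and the GFP- cells therefore carried both transgenes too. The 4 groups were GFP+ and GFP- cells at embryonic day (E) 6.5, and GFP+ and GFP- cells at E7.5, with 2 arrays each, numbered replicate 1 and replicate 2 in the labels. Each array held amplified RNA of 50 sorted living cells, and how many embryos they came from is not stated. The GFP reports the transgene system at sorting, and a histone-bound protein can outlast the transcript that gave rise to it. Mesp1 itself, a transcription factor gene of the first mesoderm, lay at 9.75 and 10.03 (log2) in GFP+ and at 5.64 and 6.26 in GFP- cells at E6.5. At E7.5 it lay at 8.75 and 8.65 in GFP+ and at 7.76 and 8.06 in GFP- cells. Thus the fractions were far apart in Mesp1 at E6.5 and close at E7.5, when GFP- cells also had a clear Mesp1 signal.

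Classical cadherins are membrane proteins that bind the same cadherin on the next cell and are held to the actin cytoskeleton by catenins. The epiblast is an epithelium joined by E-cadherin. Cells that enter the primitive streak leave this epithelium, lose E-cadherin and take up N-cadherin, a change known as the cadherin switch, in which the repressor Snai1 acts on the E-cadherin gene. Cadherin-11 is a cadherin of mesenchyme, and P-cadherin is known from extraembryonic tissues of the early embryo. RNA levels, which these arrays measured, do not show how much cadherin protein a cell carries.

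Levels below are the deposited values on the log2 scale, where 1 unit is a factor of 2. Differences carry the standard error (SE) of a limma fit over all 11706 genes and all 8 arrays, and the threshold for passing was an adjusted p of 0.05 (Benjamini-Hochberg). No cadherin passed in any of the 6 comparisons of this fit, which called few genes of any kind. At E6.5 it called 0.0769% of the genes tested between fractions. It called 0% at E7.5, 0.0256% between stages in GFP+ cells and 0.0940% between stages in GFP- cells. For the mean fraction difference over both stages the share was 0.00854%, and for the change of the fraction difference with stage 0%. The replicate numbers differed strongly across genes, so the same differences were also fitted with the replicate number as a block. The sizes stay the same in that fit, which called 0.256% of all genes between fractions at E6.5, 0.333% between stages in GFP- cells and 0.0683% over both stages. It is named only where it changed a call. The arrays show amounts per amplified RNA sample, in which fewer cells of a type and less RNA per cell cannot be told apart.

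Cdh1, the epithelial cadherin, was lowest in GFP+ cells at both stages and highest in GFP- cells at E6.5. In GFP- cells at E6.5 it lay at 8.02 and 8.29 in replicates 1 and 2. In GFP+ cells at E6.5 it lay at 5.84 and 6.14. A day later the GFP- cells had 6.99 in both replicates and the GFP+ cells 5.84 and 5.36. The fractions did not overlap at either stage, and every GFP+ array lay below every GFP- array over the 2 stages together. That separation over both stages held for 2.84% of all genes, and for 1 of the 4 cadherins on the probe sets used. The second Cdh2 probe set was also separated over both stages, with GFP+ cells higher.

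At E6.5 Cdh1 was at -2.16 in GFP+ relative to GFP- cells (4.48-fold, SE 0.31, limma adjusted p = 0.101), and replicate by replicate it was at -2.18 and -2.15. At E7.5 the difference was -1.39 (SE 0.31, limma adjusted p = 1), with -1.15 and -1.64 within the replicates. Averaged over the stages it was -1.78 (SE 0.22, limma adjusted p = 0.0835), and by unadjusted p Cdh1 stood 9th among the 11706 genes in this comparison. These differences were large against the gaps between replicates, of at most 0.48, but did not pass the threshold over all genes. Between the stages, GFP- cells had 1.16 less Cdh1 at E7.5 (SE 0.31, limma adjusted p = 0.376), with -1.03 and -1.29 within the replicates. In GFP+ cells the stage difference was -0.39 (SE 0.31). Within the replicates it was -0.0029 and -0.78, and it was -0.15 without GFP+ E7.5 replicate 2. The order of the group means was thus GFP- E6.5, GFP- E7.5, GFP+ E6.5 and GFP+ E7.5, from high to low. The 2 GFP+ groups were not separated beyond their spread, with 5.836 the highest value at E7.5 and 5.839 the lowest at E6.5.

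**Figure D1:**
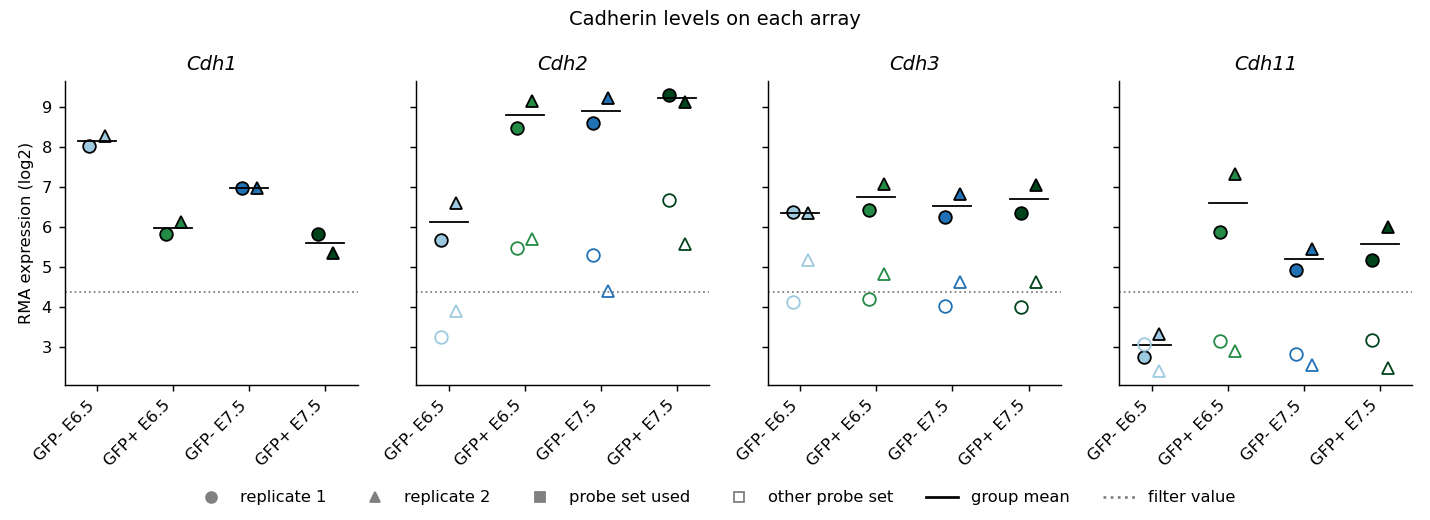
Level of each cadherin on each of the 8 arrays (y axis, RMA expression on the log2 scale; x axis, the 4 groups). Circles are replicate 1 and triangles replicate 2, filled for the probe set used and open for the other probe set of the gene, with a line at each group mean and a dotted line at the filter value of 4.38. Cdh1 is highest in GFP- cells at E6.5 (8.02 and 8.29), where Cdh2 (5.68 and 6.60) and Cdh11 (2.76 and 3.35) are lowest, while the Cdh3 groups lie close together.

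Cdh2, the cadherin gained in the switch, was lowest in the GFP- cells at E6.5. There it lay at 5.68 and 6.60, against 8.47 and 9.15 in GFP+ cells of the same stage. At E7.5 it lay at 8.59 and 9.22 in GFP- cells and at 9.30 and 9.13 in GFP+ cells. The 6 arrays of the other 3 groups therefore spanned 8.47 to 9.30, and their groups overlapped one another. The difference between fractions at E6.5 was 2.67 (6.37-fold, SE 0.43, limma adjusted p = 0.125), and replicate by replicate 2.80 and 2.55. At E7.5 it was 0.31 (SE 0.43), or 0.71 in replicate 1 and -0.08 in replicate 2, and 0.0012 when GFP- E7.5 replicate 1 was left out. Between the stages Cdh2 was 2.77 higher in GFP- cells (6.80-fold, SE 0.43, limma adjusted p = 0.106), or 2.92 and 2.61 replicate by replicate. With the replicate block this increase passed (limma adjusted p = 0.0417), in a fit that called 0.333% of all genes. Over all settings tried its limma adjusted p ran from 0.0417, the value with the block, to 0.730 on the other Cdh2 probe set. In GFP+ cells the stage difference was 0.41 (SE 0.43), or 0.83 in replicate 1 and -0.02 in replicate 2, and 0.07 when GFP+ E6.5 replicate 1 was left out.

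The second Cdh2 probe set gave lower values and the same order at E6.5, but a larger difference at E7.5. It lay at 3.26 and 3.90 in GFP- and at 5.48 and 5.70 in GFP+ cells at E6.5, and at 5.31 and 4.41 in GFP- and 6.67 and 5.59 in GFP+ cells at E7.5. Its fraction difference was 2.01 (SE 0.49) at E6.5 and 1.27 (SE 0.49) at E7.5, in a fit of 18584 probe sets in which neither passed (limma adjusted p = 0.348 and 1). On this probe set the fractions did not overlap at E7.5 either. Its stage difference in GFP- cells was 1.28 (SE 0.49, limma adjusted p = 0.730), or 2.05 in replicate 1 and 0.51 in replicate 2, against 2.77 on the probe set used. The GFP- values at E6.5 lay below 4.38, so the size of the difference there is uncertain. The 2 probe sets correlated at r = 0.835 over the 8 arrays, which share the group differences and the replicate numbers. The fraction difference in Cdh2 at E7.5 and the size of its stage difference in GFP- cells thus depended on the probe set.

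Cdh11, the mesenchymal cadherin, was higher in GFP+ than in GFP- cells at E6.5. In GFP- cells at E6.5 it lay at 2.76 and 3.35, below the filter value, and in GFP+ cells at 5.88 and 7.32. At E7.5 it lay at 4.93 and 5.47 in GFP- and at 5.18 and 6.01 in GFP+ cells. The GFP- cells at E6.5 stood apart from all other arrays, and the 2 fractions overlapped at E7.5. The difference at E6.5 was 3.55 (SE 0.55, limma adjusted p = 0.120), with 3.13 and 3.97 within the replicates. With the replicate block it passed (limma adjusted p = 0.0264), in a fit that called 0.256% of all genes, and over the settings tried its adjusted p ran from 0.0264 to 0.420. Since the GFP- values at E6.5 lay below 4.38, the size of this difference is uncertain. At E7.5 the difference was 0.40 (SE 0.55), and it was -0.02 without GFP+ E7.5 replicate 2.

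The stage difference of Cdh11 had opposite signs in the 2 fractions. In GFP- cells it was 2.15 higher at E7.5 (SE 0.55, limma adjusted p = 0.361), with 2.18 and 2.12 within the replicates. In GFP+ cells it was at -1.01 (SE 0.55, limma adjusted p = 1), or -0.70 in replicate 1 and -1.31 in replicate 2. It was -1.73 when GFP+ E6.5 replicate 1 was left out and -0.29 when GFP+ E6.5 replicate 2 was. The GFP+ groups overlapped, since 6.01 at E7.5 lay above 5.88 at E6.5. The second Cdh11 probe set lay between 2.40 and 3.19 on all 8 arrays, never above 4.38, and did not follow the first (r = 0.0628 over the 8 arrays). Every statement on Cdh11 therefore rests on 1 probe set.

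Cdh3, the placental cadherin, had nearly the same level in all groups. It lay at 6.38 and 6.36 in GFP- and at 6.43 and 7.07 in GFP+ cells at E6.5, and at 6.26 and 6.83 in GFP- and 6.36 and 7.05 in GFP+ cells at E7.5. In 3 of the 4 groups replicate 2 was higher than replicate 1 by 0.57 to 0.69, more than any difference between the group means. The fraction difference was 0.38 at E6.5 (SE 0.39, 95% interval -0.53 to 1.30) and 0.17 at E7.5 (SE 0.39, 95% interval -0.75 to 1.08). The stage difference was -0.04 in GFP+ (95% interval -0.96 to 0.87) and 0.17 in GFP- cells (95% interval -0.74 to 1.09). These intervals leave room for differences between groups of up to 1.30 log2 units. The second Cdh3 probe set lay near the filter value, from 4.02 to 5.19, with -0.13 at E6.5 and -0.02 at E7.5 between the fractions (SE 0.48 each). It was above 4.38 on every replicate 2 array and on no replicate 1 array.

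**Figure D2:**
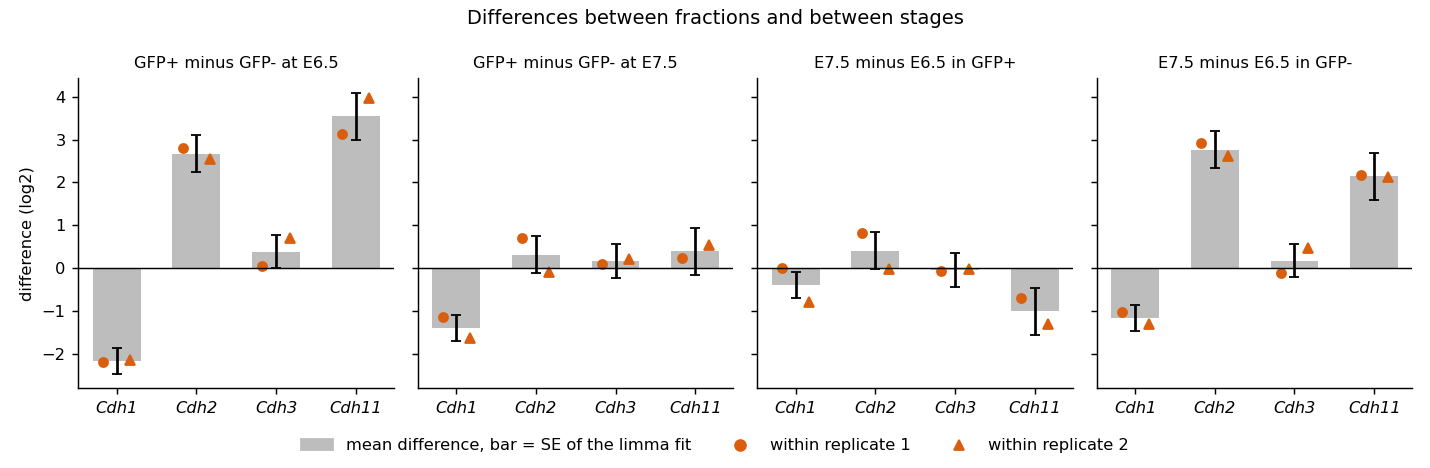
Difference in log2 level for each cadherin in 4 comparisons (y axis, log2 difference; x axis, gene). Grey bars are the mean difference with the SE of the limma fit, orange circles the value within replicate 1 and triangles within replicate 2. Cdh1 (-2.16), Cdh2 (2.67) and Cdh11 (3.55) differ between fractions at E6.5, and at E7.5 Cdh1 (-1.39) has the largest difference.

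How far the cadherins differed against each other was read from gaps between 2 genes within an array. The gap itself has no meaning, because probe sets differ in brightness. A constant difference in brightness drops out of its change between arrays, but the size of that change still depends on the probe set. The gap Cdh2 minus Cdh1 was 4.83 larger in GFP+ than in GFP- cells at E6.5, with 4.98 and 4.69 within the replicates. At E7.5 it was 1.71 larger, with 1.86 and 1.55. Most of this came from Cdh1 (-1.39, SE 0.31), as Cdh2 was at 0.31 (SE 0.43), or 1.27 (SE 0.49) on its second probe set. Between the stages, the gap was 3.93 larger at E7.5 than at E6.5 in GFP- cells (3.95 and 3.91) and 0.80 larger in GFP+ cells (0.84 and 0.77). The replicates agreed more closely in this gap than in either gene in GFP- cells, where the replicate values for Cdh2 alone were 2.92 and 2.61. The same held between fractions at E7.5 and between the stages in GFP+ cells. Between fractions at E6.5 they agreed less closely in the gap than in Cdh1 (-2.18 and -2.15) or Cdh2 (2.80 and 2.55). The gap Cdh11 minus Cdh1 was 5.71 larger in GFP+ cells at E6.5 (5.31 and 6.12) and 1.79 larger at E7.5 (1.40 and 2.18), where the value at E6.5 is uncertain in size because Cdh11 lay below 4.38 in GFP- cells. At E7.5 most of this change again came from Cdh1, as Cdh11 was at 0.40 (SE 0.55). In these gaps Cdh2 stands for the probe set used. On the second one the stage difference of Cdh2 in GFP- cells was 1.28 against 2.77. Against Cdh3, Cdh1 was at -2.55 in GFP+ relative to GFP- cells at E6.5 (-2.23 and -2.86) and at -1.56 at E7.5 (-1.26 and -1.86).

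GFP- cells at E7.5 differed in position by gene and probe set. On the Cdh2 probe set used, they overlapped the GFP+ cells of both stages, and on the second probe set (5.31 and 4.41) they lay below them, whereas their Cdh1, at 6.99 on both arrays, lay above all 4 GFP+ arrays and below both GFP- arrays of E6.5. The change of the fraction difference from E6.5 to E7.5 was tested as an interaction. It was -3.15 for Cdh11 (SE 0.78, unadjusted p = 0.00457 from limma), -2.36 for Cdh2 (SE 0.61, unadjusted p = 0.00603 from limma), 0.77 for Cdh1 (SE 0.44) and -0.22 for Cdh3 (SE 0.55). On the second Cdh2 probe set it was -0.74 (SE 0.70). None passed over all genes (limma adjusted p = 1 for each). limma called 0 of 11706 genes for this interaction, with 317 at an unadjusted p under 0.05. A loss of the fraction difference with stage is therefore not shown for single cadherins by this design.

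**Figure D3:**
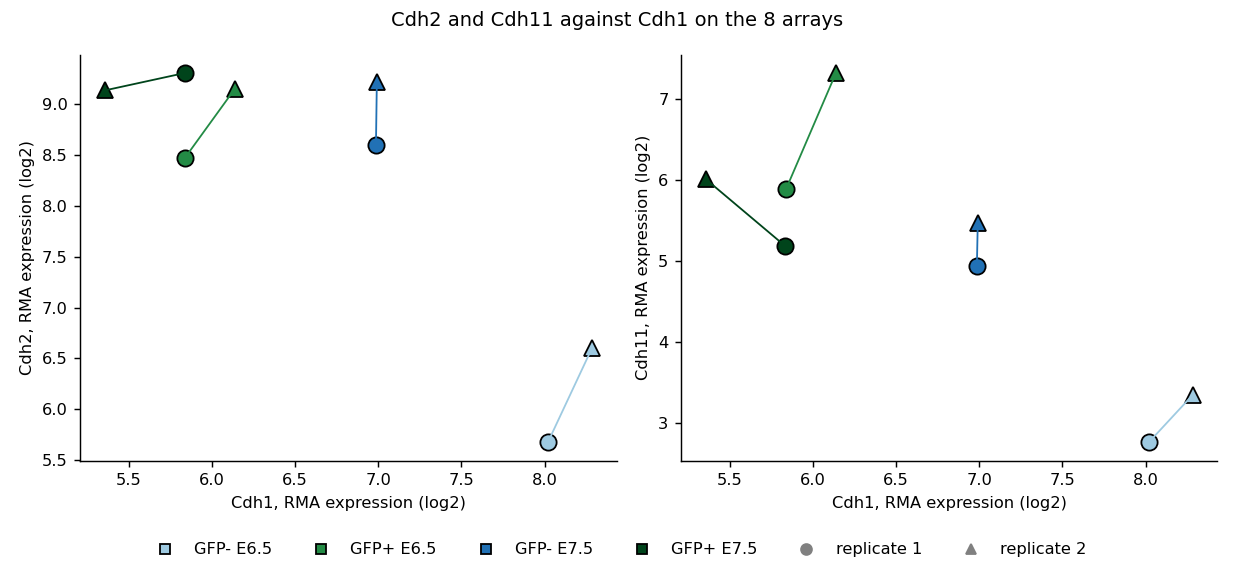
Cdh2 (left) and Cdh11 (right) against Cdh1 on the 8 arrays (all axes, RMA expression on the log2 scale), with a line joining the 2 arrays of a group. GFP- cells at E6.5 lie at high Cdh1 and low Cdh2 or Cdh11, the GFP+ groups at low Cdh1 and high Cdh2, and GFP- cells at E7.5 have Cdh1 at 6.99 with Cdh2 at 8.59 and 9.22.

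On the probe sets used, all 4 cadherins had groups that did not overlap between fractions at E6.5, as did 28.5% of all genes. At E7.5 this held for Cdh1 alone, against 21.1% of all genes. Between the stages it held for 3 of the 4 in GFP- cells, against 26.7%, and for 1 of the 4, Cdh1, in GFP+ cells, against 27.0%. On the second probe sets, Cdh3 and Cdh11 overlapped between fractions at E6.5, and Cdh2 did not overlap at E7.5. With 2 arrays a group such separation is common, and the genes were chosen with earlier results of these arrays known.

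Over the 8 arrays, with the mean of each replicate number removed, Cdh1 correlated at r = -0.839 with Cdh2, -0.865 with Cdh11 and -0.753 with Cdh3. Cdh2 and Cdh11 correlated at r = 0.869. With the replicate means left in, Cdh1 correlated at r = -0.820 with Cdh2, -0.819 with Cdh11 and -0.489 with Cdh3, and by Spearman's rho at -0.548, -0.690 and -0.405. Cdh2 and Cdh11 then gave r = 0.871 and rho = 0.548. These values describe 8 arrays that share 4 groups, and the GFP- cells at E6.5 lie far from the rest. The genes most like each cadherin by the same measure were then listed, 5 for each. For Cdh1 they were Uso1, a vesicle tether gene (r = 0.995), the secreted Wnt modulator gene Sfrp2 (0.987), the Polycomb gene Cbx7 (0.982), Enpp3 (0.979) and the tetraspanin gene Tspan4 (0.978). For Cdh2 they were Greb1 (0.996), Iffo2 (0.992), Rbms1 (0.988), the fibronectin gene Fn1 (0.985) and the Wnt target Axin2 (0.982). For Cdh11 they were the Src-family kinase gene Yes1 (0.991), Sall3 (0.983), Snai1 (0.982), Mesp1 (0.976) and S1pr5, which encodes a receptor for a signalling lipid (0.974). For Cdh3 they were Mcrip1 (0.975), Slc41a1 (0.964), Yipf3 (0.963), Zscan21 (0.962) and Zfp128 (0.955). Of the other 11705 genes, 144 exceeded an r of 0.9 with Cdh1, 147 with Cdh2, 58 with Cdh11 and 30 with Cdh3.

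The partners, relatives and regulators of the cadherins were taken from 9 lists, of which 58 genes were tested. In the comparison of fractions at E6.5, 1 of these 58 passed, higher in GFP+ cells, and 0 lower, where 0.0769% of all genes passed. That gene was Snai1, a zinc finger repressor that binds the E-cadherin promoter. It lay at a mean of 10.96 in GFP+ and 7.83 in GFP- cells and rose by 3.13 (SE 0.34, limma adjusted p = 0.0495), with 3.28 and 2.97 within the replicates. It did not pass without any 1 of the 8 arrays (limma adjusted p = 0.0825 to 0.373), with only the 4 arrays of the stage (0.158), with no filter (0.0534) or with every probe set tested on its own (0.0766). Of the 8 repressors tested, 7 were higher and 1 lower in GFP+ cells at E6.5, with a median of 0.48 against 0.01 for all genes. Zeb2, a relative of Zeb1 that binds the same kind of site, was at 1.36 (SE 0.66, 1.38 and 1.34 within the replicates). Gsc, a homeobox gene of the anterior streak, was at 1.03 (SE 0.59, 1.97 and 0.10 within the replicates).

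Between the stages in GFP- cells, 5 of the 8 repressors were higher at E7.5 and 3 lower (median 1.30), 0 passed without the replicate block and 2 with it. Snai1 was 1.90 higher at E7.5 (SE 0.34) and Zeb2 1.995 higher (SE 0.66), and both passed with the replicate block (limma adjusted p = 0.0313 and 0.0279) and not without it (0.140 and 0.584). Twist1, a mesenchymal regulator, was 2.17 higher (SE 0.64, limma adjusted p = 0.460), and Gsc, Tcf3 and Twist2 were the 3 lower. In GFP+ cells Snai1 was at -0.69 between the stages and Twist1 at 2.21 (SE 0.64). Of the 58 list genes, 0 passed between the stages in either fraction without the block, and 3 in GFP- cells with it. Of all genes, 0.0256% passed in GFP+ and 0.094% in GFP- cells without the block, and 0.333% in GFP- cells with it.

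The core catenins differed between fractions by less than their SE. Ctnnb1, the gene of beta-catenin, which links cadherins to alpha-catenin and also carries the Wnt signal, was at 0.08 (SE 0.28) between fractions at E6.5. Ctnna1, the gene of the actin-binding alpha-catenin, was at 0.19 (SE 0.28), and Ctnnd1, the gene of p120-catenin, which keeps cadherins at the membrane, at 0.13 (SE 0.30). These 3 were named for their role and not by the rule for named genes. Jup, which encodes plakoglobin, a catenin that also serves desmosomes, was at -1.46 (SE 0.46, -1.90 and -1.02 within the replicates). Lima1, an actin-binding protein gene, was at -1.37 (SE 0.80), and Afdn, which encodes the nectin-binding protein afadin, at -0.96 (SE 0.54). Of 10 partners tested, 5 were higher, 5 lower and 0 passed, with a median of -0.0032. The nectins, adhesion proteins that work beside cadherins, were all 3 lower in GFP+ cells at E6.5, with Nectin2 at -0.54 (SE 0.40) and Nectin1 at -0.51 (SE 0.37), and 0 passed.

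Among the other cadherins and the protocadherins, Pcdh7, Pcdh18 and Cdh4 had differences of over 1 unit at E6.5. Pcdh7, a protocadherin gene, had a mean level of 6.90 in GFP+ cells against 3.45 in GFP- cells, which differed by 3.44 (SE 0.52, limma adjusted p = 0.120), with 4.02 and 2.87 within the replicates. The GFP- level was below 4.38, so its size is uncertain. Cdh4, the gene of R-cadherin, a close relative of N-cadherin, was at 1.40 (SE 0.48, 1.34 and 1.45 within the replicates). Pcdh18 was at 1.36 (SE 0.45), with its GFP- mean of 4.16 below the filter value. Of the 8 other cadherins tested, 4 were higher, 4 lower and 0 passed (median 0.02), and of the 5 protocadherins tested 3 were higher, 2 lower and 0 passed (median 0.57).

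Pcdh19 was higher at E7.5 than at E6.5 in both fractions. GFP+ cells had a mean of 4.71 at E6.5 and 8.33 at E7.5, and GFP- cells 4.14 and 7.38. The difference between fractions was 0.57 (SE 0.56) at E6.5 and 0.95 (SE 0.56) at E7.5. Between the stages it was 3.62 in GFP+ cells (SE 0.56, limma adjusted p = 0.213) and 3.24 in GFP- cells (SE 0.56, limma adjusted p = 0.129). The latter passed with the replicate block (limma adjusted p = 0.0391) and with the mean of all its probe sets (0.0489), and its E6.5 mean lay below 4.38. Pcdh18 was 2.40 higher at E7.5 in GFP- cells (SE 0.45) and 1.26 higher in GFP+ cells (SE 0.45).

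Of the 6 desmosome genes tested, 5 were lower and 1 higher in GFP+ cells at E6.5, with a median of -0.75 and 0 passed. The desmocollin gene Dsc2 was at -1.25 (SE 0.59), but with -0.14 and -2.37 within the replicates, and Perp at -0.98 (SE 0.90). Dsp, which encodes the plaque protein desmoplakin, was at 1.27 (SE 0.83), with 2.54 and 0.00085 within the replicates. Of the 5 atypical cadherins tested, 1 was higher and 4 lower (median -0.11, 0 passed). Fat3 was at 1.62 (SE 0.53), the planar polarity gene Celsr2 at -1.28 (SE 0.57, -2.38 and -0.18 within the replicates) and Fat1 at -0.73 (SE 0.56). The mean of Dsc2 and Perp in GFP+ cells and of Fat3 in GFP- cells lay below 4.38, and the replicates disagreed on several of these sizes.

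Among 7 epithelial transcription factors tested, 3 were higher, 4 lower and 0 passed at E6.5 (median -0.0097). Grhl2, a grainyhead factor that maintains E-cadherin and other epithelial genes, was at -2.11 (SE 0.53, limma adjusted p = 0.344), with -2.68 and -1.53 within the replicates. Its mean was 6.84 in GFP- and 4.73 in GFP+ cells. Between the stages in GFP- cells it was at -1.67 (SE 0.53), the 1 lower gene of this list, of which 6 were higher and 0 passed (median 0.95). Foxa2, an endoderm and node gene, was at -0.68 (SE 0.59) and Tfap2a, a surface ectoderm gene, at 0.64 (SE 0.60). Of 6 genes tested that act on the E-cadherin protein, 5 were higher, 1 lower and 0 passed (median 0.15), with Map4k4, a kinase gene needed at gastrulation, at 0.73 (SE 0.48, 0.09 and 1.36 within the replicates).

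At E7.5, 0 of the 58 genes passed between fractions, as did 0 of all 11706 genes, with 282 at an unadjusted p under 0.05 in limma. Tfap2a had the largest difference, at -2.20 (SE 0.60, -2.21 and -2.19 within the replicates). It was followed by Lima1 at -1.20 (SE 0.80, -1.22 and -1.18 within the replicates) and Tfap2c at -1.19 (SE 0.63, -2.47 and 0.08 within the replicates). Pcdh7 was at 1.15 (SE 0.52, 2.04 and 0.27 within the replicates), Celsr3 at -0.96 (SE 0.38) and Nectin2 at -0.90 (SE 0.40). Snai1 was at 0.54 (SE 0.34).

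**Figure D4:**
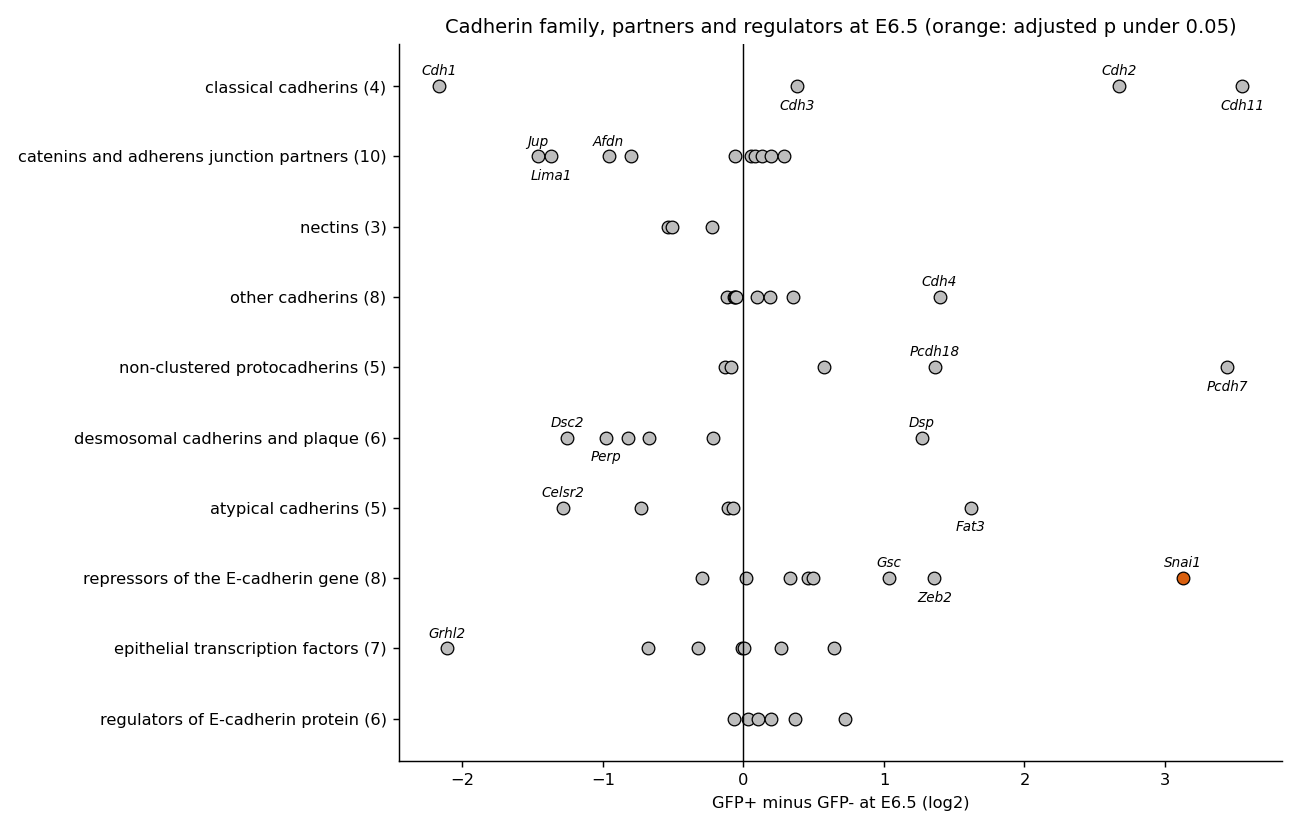
GFP+ minus GFP- difference at E6.5 (x axis, log2) for the 4 classical cadherins and for each tested gene of the 9 lists (rows, with the number of genes tested). Orange marks the gene past an adjusted p of 0.05, Snai1 at 3.13, and names are given for differences over 0.9 in size. Cdh2, Cdh11 and Pcdh7 lie to the right and Cdh1 and Grhl2 to the left, with the core catenins near 0.

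Markers of other cell types were also measured in the fractions. Of the visceral endoderm, extraembryonic ectoderm and epiblast genes, 0 passed between fractions at either stage without the replicate block. With it, 1 passed at E6.5, the visceral endoderm gene Rbp4, which encodes a retinol carrier (-3.31, SE 0.75, limma adjusted p = 0.0480 with the block). The fit with the block called 0.256% of all genes there. Visceral endoderm, an epithelium that also carries E-cadherin, was followed by 12 of its 13 listed genes. At E6.5, 12 of 12 were above 4.38 in both GFP- arrays and 6 and 8 of them in the GFP+ arrays. Their summed level ranged from 10.1 to 12.2 (log2) in GFP- and from 7.96 to 8.48 in GFP+ cells. At E7.5 it ranged from 8.71 to 10.6 in GFP- and from 8.81 to 9.07 in GFP+ cells, so the fractions overlapped there. In GFP- cells at E7.5, 6 of 12 were above 4.38 in replicate 1 and 11 in replicate 2, and in GFP+ cells 7 and 8. The median of all values on an array was 4.20 to 4.23 in replicate 1 and 4.54 to 4.59 in replicate 2. Counts of marker genes above 4.38 are therefore not comparable between the replicate numbers. Hnf4a, a regulator that defines this tissue, lay below 4.38 on all 4 arrays of E7.5. On GFP- E7.5 replicate 2 it was the only gene of the list below that value.

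Extraembryonic ectoderm, the tissue of the early placenta, had 8 of 8 listed genes measured. Its summed level was 9.18 to 10.4 in GFP- and 7.55 to 7.77 in GFP+ cells at E6.5, and 9.20 to 10.7 in GFP- and 8.15 to 8.52 in GFP+ cells at E7.5. Of the 8, 5 were above 4.38 on each GFP+ array of E6.5, and 4 and 5 on those of E7.5. In GFP- cells 7 and 8 were above it at E6.5, and 7 and 5 at E7.5. Its defining genes Elf5 and Esrrb lay below 4.38 on all 4 GFP+ arrays and on GFP- E7.5 replicate 2, as did Wnt7b. Epiblast genes summed to 13.5 to 13.6 in GFP- and 12.6 in GFP+ cells at E6.5, and to 12.3 to 12.6 and 11.2 to 11.6 at E7.5. Like the group means of Cdh1, these sums were highest in GFP- cells at E6.5 and lowest in GFP+ cells at E7.5. GFP+ cells at E6.5 and GFP- cells at E7.5 overlapped in the sums, whereas Cdh1 was higher in the latter. Streak and nascent mesoderm genes summed to 12.6 to 12.8 in GFP+ and 10.1 to 11.04 in GFP- cells at E6.5. At E7.5 they summed to 11.67 to 12.09 in GFP+ and 11.09 to 11.16 in GFP- cells, without overlap. Extraembryonic mesoderm genes summed to 7.31 to 7.75 in GFP- cells at E6.5 and to 10.9 to 11.3 at E7.5, and in GFP+ cells to 7.64 to 9.48 at E6.5 and to 9.94 to 11.2 at E7.5. The sum of the extraembryonic mesoderm genes was thus higher at E7.5 in both fractions. Cdh11 was at 2.15 in GFP- and at -1.01 in GFP+ cells between the stages. The part of the make-up of the sorted cells in these cadherin differences was not tested.

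**Figure D5:**
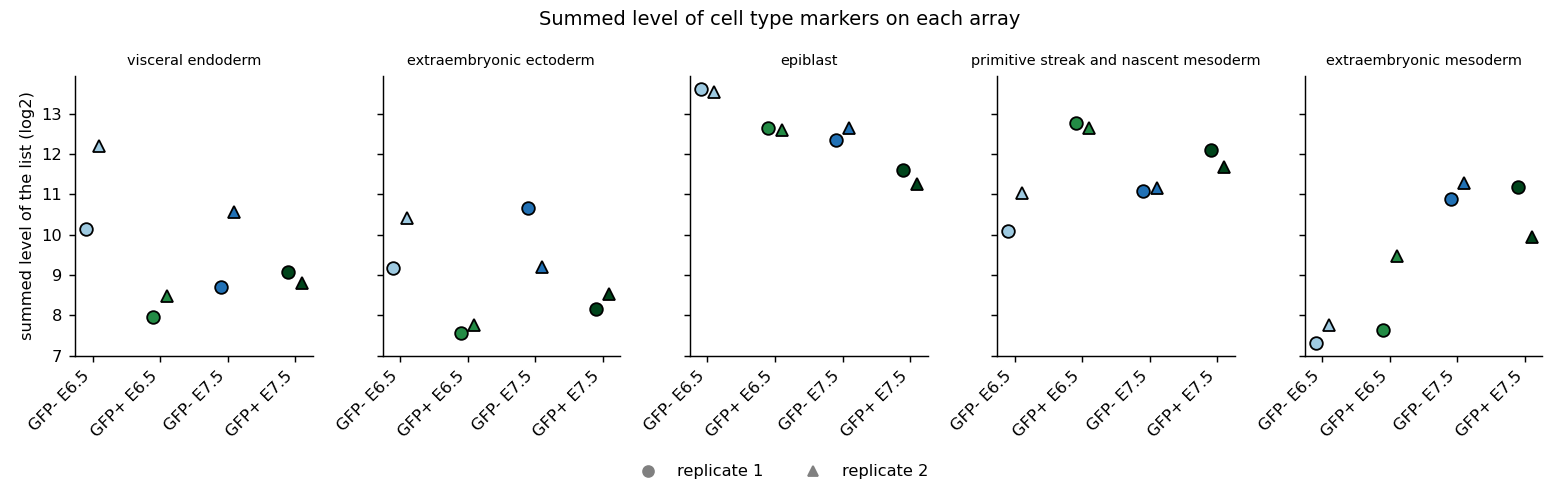
Summed level of 5 lists of cell type markers on each array (y axis, log2 of the sum of linear values; x axis, the 4 groups; circles replicate 1, triangles replicate 2). Visceral endoderm genes are highest in GFP- cells at E6.5 (10.1 and 12.2), and streak and nascent mesoderm genes in GFP+ cells at E6.5 (12.6 to 12.8).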

How the data were processed

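The deposited log2 expression values were made by the authors with RMA, per the submitters' processing notes; its version and a genome build are not given in the sources used here, so no coordinates are printed. The array was an Affymetrix mouse perfect-match array, and the RNA was amplified with up to 25 PCR cycles, per the labels' protocols. Probe sets were named only from annotations with 1 symbol (28898 of 45141), and 28689 of these matched the GRCm38.p6 table by Entrez identifier. Probe sets above 4.38 on at least 2 arrays were kept, and of several for 1 gene the one with the highest mean was used. limma 3.58.1 in R 4.3.3 (lmFit, eBayes, 4 residual degrees of freedom, prior 3.21) was fitted with 1 mean per group, tested on simulated data first. The simulated data held no difference between the replicate numbers, so they do not show how the fit behaves with it. The series text says that the whole design was repeated. Deviations of same-numbered arrays correlated for all 6 pairs of groups (r = 0.401 to 0.532). Differences were therefore also given within each number and fitted with the number as a block. The main fit leaves this pairing out, and its SE carries the differences between the numbers. For Cdh11 between fractions at E6.5 the SE was 0.55 in the main fit and 0.27 with the block. The first principal component (36.6% of the variance) separated the replicate numbers. Sorted values differed by a mean of 0.027 between arrays of 1 number and 0.229 between numbers. The labels name the replicates biological; p-values measure the spread between these samples. The number of arrays limits the precision.

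The members and lists were chosen with earlier results of these data known. Genes named from the lists were those that passed, and otherwise the 3 with the largest difference between fractions at E6.5 and the 2 at E7.5, leaving to the counts, after their values were seen, those under 0.5 at E6.5 and under 0.9 at E7.5 (Snai1 apart, and Fat1, Jup, Afdn and Tfap2a in the closing section). Likeness was Pearson's r after subtracting each replicate number's mean, 5 genes per cadherin. Alternatives were the replicate block, the mean of all probe sets, every probe set on its own, no filter or 4 arrays above 4.38, quantile normalization over the 8 arrays, only the 4 arrays compared, and leaving out each array. Promoter and protein sequences of the cadherins were not used here.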

Additional observations from a re-analysis of the deposited data

Results flagged for a closer look

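Cdh11 ran in opposite directions between the stages in both replicates of each fraction: -1.01 in GFP+ and 2.15 in GFP- cells. The interaction was -3.15 (limma adjusted p = 1).

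The same was seen in Snai1 (-0.69 in GFP+, 1.90 in GFP- cells, interaction -2.59, limma adjusted p = 0.923) and Pcdh7 (-1.56, 0.73 and -2.29). For Tfap2a the stage differences were -1.01 and 1.83, with an interaction of -2.84. Jup ran the other way, at 0.54 in GFP+ and -1.26 in GFP- cells, with an interaction of 1.80, and so did Afdn (0.62, -0.37 and 0.99). For these 4 genes the limma adjusted p of the interaction was 1.

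The fraction difference in Fat1 was -0.73 at E6.5 and 0.17 at E7.5, with opposite signs in both replicates and an interaction of 0.90 (limma adjusted p = 1). The interaction passed for none of these 7 genes in limma. These 7 genes were listed for the opposite signs of their replicate values, and the share of all genes with such signs was not determined. Opposite signs alone therefore do not set them apart from other genes.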

How the results depend on the processing

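Cdh1 and Cdh2 kept their direction in every comparison and setting run, and Cdh11 did so except between fractions at E7.5, where it ranged from -0.020 (without GFP+ E7.5 replicate 2) to 0.81. With the replicate block, 1 of the 4 cadherins passed at E6.5 (Cdh11, 3.55) and 1 between the stages in GFP- cells (Cdh2, 2.77), against 0 without it; the block changed no other cadherin call. It also let Snai1 (1.90), Zeb2 (1.995) and Pcdh19 (3.24) pass between the stages in GFP- cells. Pcdh19 passed there as well with the mean of its probe sets and no block (3.16). For the mean fraction difference over both stages, 1 of the 8 repressors tested passed with the block, against 0 without it. The second Cdh2 probe set gave 1.28 against 2.77 between the stages in GFP- cells and -0.74 against -2.36 for the interaction. The signs of Cdh3 depended on the probe set: the second gave -0.13 and -0.016 between fractions at E6.5 and E7.5, -0.075 over both stages, -0.32 between the stages in GFP- cells and 0.12 for the interaction, and the mean of both gave -0.074 between the stages in GFP- cells. Leaving out each array, Cdh3 ranged from -0.18 to 0.51 between fractions at E7.5, from -0.39 to 0.30 between the stages in GFP+ and from -0.11 to 0.46 in GFP- cells, and from -0.56 to 0.13 for the interaction. In the same way, differences at E6.5 ranged from -0.027 to 0.19 for Ctnnb1, -0.067 to 0.33 for Ctnnd1, -0.32 to 1.61 for Tfap2a, -0.022 to 1.47 for Map4k4, -1.49 to 0.13 for Foxa2 and -2.12 to 0.17 for Perp. Afdn ranged from -0.84 to 0.10 between the stages in GFP- cells and Fat1 from -0.43 to 0.77 between fractions at E7.5. Mesp1 at E6.5 (3.94, limma adjusted p = 0.0209) did not pass with only the 4 arrays of the stage (0.158) or without any 1 array (0.0587 to 0.348). Of all genes, the replicate block called 30 against 9 at E6.5, 39 against 11 between the stages in GFP- cells and 8 against 1 over both stages, and quantile normalization called 16, 26 and 10. Every probe set on its own gave 4 at E6.5, and only the 4 arrays compared gave 0 there and 4 between the stages in GFP- cells. The cause was not tested, other than that fewer arrays or more tests enter some settings. With 2 arrays a group, precision is limited by their number, and levels below 4.38 are uncertain in size.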

Other observations

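In the gene order of the RefSeq table (GRCm38.p6), Cdh3 and Cdh1 are direct neighbours. Between fractions at E6.5, Cdh1 was at -2.16 (SE 0.31) and Cdh3 at 0.38 (SE 0.39). The genes on either side of the pair were Zfp90 at 0.26 (SE 0.43) and Tango6 at 0.34 (SE 0.35). Cdh2 lies next to the desmocollin genes Dsc3 and Dsc2. Dsc3 was at -0.22 (SE 0.55) and Dsc2 at -1.25 (SE 0.59), against 2.67 (SE 0.43) for Cdh2. The direct neighbours of Cdh11 are Cdh8 and Cdh5, neither of which passed the filter on low values.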
